A study of Homo sapiens with 38 samples.

Results

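The cells were IMR90, an established line of normal human lung fibroblasts, driven into senescence by ras, and they carried either a short hairpin RNA against p107 (shp107) or the empty MLP vector. The 2 senescent shp107 arrays of experiment 1 were set against its 2 senescent vector arrays, all chosen by their titles, which makes 4 of the 38 arrays in the series. Across the series, hairpins against RB, p107 or p130 were used in 4 states: growth, low serum, confluence and senescence. Experiment 1 holds 32 Affymetrix arrays in 16 groups of 2. Beside the 4 arrays, the 2 senescent shRB, 2 senescent shp130, 2 growing shp107 and 2 growing vector arrays entered direct differences. The shp107 and vector pairs of low serum (0.1% FBS) and of confluence were also compared. Senescent cells of all these groups received ras, the vector cells included, and medium held 10% FBS unless another condition was named. The labels give neither the hairpin sequence nor the ras construct. Replicates are labelled A and B (arrays 1 and 2 here), and the labels do not say whether the cultures were separate. The p-values therefore cover the spread among these arrays, which may be technical.

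p107, the product of RBL1, belongs with RB and p130 to the pocket proteins, which bind E2F transcription factors and hold back genes needed for DNA replication and mitosis. In fibroblasts, an active ras oncogene raises cell cycle inhibitors such as p16 (from CDKN2A) and p21 (from CDKN1A), and cells stop dividing while secreting inflammatory factors and matrix proteases. The comparison asks which genes differ in senescent cells when the hairpin against p107 is present.

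With shp107, senescent fibroblasts had lower values of many genes of the respiratory chain, of ribosomes and of RNA processing complexes. A smaller set that included RGS5, CYP26B1 and ACP3 had higher values. RGS5, CYP26B1 and ACP3 were also called higher than vector with shRB, and CYP26B1 and ACP3 with shp130. Of 42 DNA replication genes, 2 were called against vector, where 7.84% of all genes tested were called, and 26 were lower with shp107 than with shRB, where 11.6% of all genes tested were lower. The 2 shp107 arrays did not show these differences equally: most falls were deeper in array 2. RBL1 itself had log2 values under 5 in all 8 senescent arrays, and its knockdown was not detectable there.

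Values are log2 expression values, 1 per probe set and array, and each gene is represented by 1 probe set. The 8 senescent arrays had median values of 3.3 to 3.41 over all probe sets, and 21.6% to 23.0% of probe sets lay above 5. The number of arrays, not a read depth, limits the precision. Of 14 fibroblast markers, 13 exceeded a log2 value of 5 in both groups, with VIM (vimentin, an intermediate filament protein) reaching 13.38 in shp107 cells and 13.04 in vector cells. The summed log2 level of the 14 ranged from 128.91 to 130.68 in shp107 arrays and from 124.54 to 124.69 in vector arrays. Of 12 epithelial markers, KRT18 alone exceeded 5, and none of 9 blood markers did, with highest values of 3.76 in shp107 cells and 3.58 in vector cells. Of 10 endothelial markers, 2 exceeded 5 in shp107 cells and 1 in vector cells. HRAS, chosen after its values were seen, read 9.02 and 8.96 in shp107 arrays and 8.69 and 8.85 in vector arrays.

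The targeted gene, RBL1, read 3.16 and 3.26 in senescent shp107 arrays and 3.44 and 3.24 in senescent vector arrays. The groups overlapped, and the change of -0.13 ± 0.54 (standard error, SE) was not called (limma, adjusted p = 0.927). The gene's other probe sets were all too dim to pass the filter, with changes of -0.12, 0.06 and -0.03, and none was called. Of the states, low serum showed the widest gap on the main probe set, with 2.95 and 3.09 in shp107 arrays and 4.65 and 3.99 in vector arrays. A knockdown in senescent cells was not detectable at this signal, and shp107 names the labelled hairpin throughout.

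The other pocket protein genes were bright and gave no call against vector. RB1, the gene of RB, read 9.85 and 9.90 in shp107 arrays and 9.14 and 9.63 in vector arrays (0.49 ± 0.36, limma, adjusted p = 0.461). RBL2, the gene of p130, read 8.02 and 7.78 in shp107 arrays and 7.68 and 7.47 in vector arrays (0.32 ± 0.26, adjusted p = 0.528). In both genes the shp107 arrays were higher without a call. Their own hairpins moved them: RB1 was 5.81 ± 0.36 higher with shp107 than with shRB (adjusted p = 2.03e-09), and RBL2 was 3.21 ± 0.26 higher with shp107 than with shp130 (adjusted p = 1.92e-07).

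Of 8511 genes tested, 667 (7.84%) were called at an adjusted p under 0.05 between senescent shp107 and vector cells, and 445 of these differed at least 2-fold. More fell than rose: 434 genes (5.1%) were lower and 233 (2.74%) higher. The groups did not overlap in any of the 667, nor in 4023 genes in all, which is 47.3% of those tested. In such bulk samples, fewer cells expressing a gene and less RNA per cell cannot be told apart. The count depended on single arrays. Without shp107 array 2 it was 183 (107 lower), without shp107 array 1 it was 1477 (1030 lower), without vector array 1 it was 288, and without vector array 2 it was 296. In all 4 of these fits, 121 of the 667 were called in the same direction, 96 lower and 25 higher.

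The shp107 arrays differed from each other more than most replicates. The SD of array 1 minus array 2 over the genes tested was 0.659 in senescent shp107 cells, against 0.384 in senescent vector cells. Among the 16 replicate pairs of experiment 1, only the confluent vector pair was wider, at 0.794. Array 1 lay closer to the vector: its difference from the vector mean had an SD of 0.494 over genes, and that of array 2 had 0.775. In array 2, 915 genes lay more than 1 log2 unit below the vector mean and 373 above, while in array 1 the numbers were 162 and 267. Across genes, array 1 correlated at 0.975 and 0.973 with the vector arrays and array 2 at 0.940 and 0.945, while the shp107 arrays correlated with each other at 0.960 and the vector arrays at 0.987 (Pearson, a description, since genes are not independent replicates).

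The asymmetry lay on the side of the falls. The 434 lower genes had a median of -0.74 in array 1 and -1.82 in array 2, and 417 of them were farther below the vector in array 2. The 233 higher genes had medians of 0.93 and 1.08, and 145 of them were farther above the vector in array 2. The plot of both arrays gives each gene's position.

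**Figure D1:**
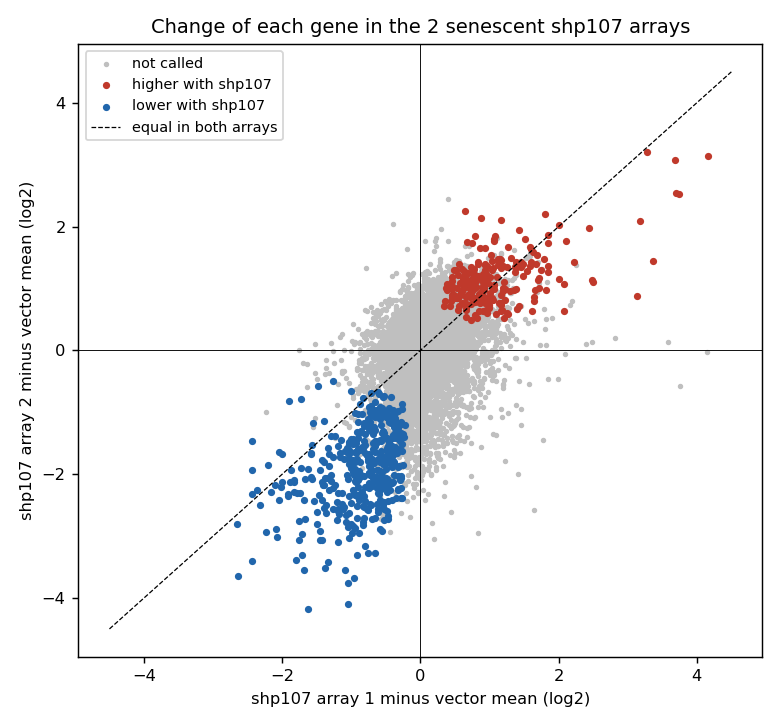
Each point is 1 of the 8511 genes tested, with its log2 difference from the mean of the 2 senescent vector arrays in shp107 array 1 (x axis) and shp107 array 2 (y axis). Genes called lower (blue) lie mostly beneath the dashed line of equality, with 417 of 434 farther below the vector in array 2, and genes called higher (red) lie on both sides of it.

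The largest rises included RGS5, CYP26B1, ACP3 and HINT3. RGS5, a regulator that shortens G protein signalling, read 8.85 and 8.24 in shp107 arrays and 4.96 and 5.38 in vector arrays, a change of 3.37 ± 0.39 (limma, adjusted p = 1.94e-05). CYP26B1, an enzyme that breaks down retinoic acid, read 9.22 and 8.06 in shp107 arrays and 6.25 and 4.79 in vector arrays (3.12 ± 0.41, adjusted p = 6.38e-05). In both genes each shp107 array lay above each vector array, which the choice of the 15 largest rises required of every member. ACP3, an acid phosphatase first known from prostate, read 9.37 and 8.28 in shp107 arrays and 6.16 and 6.22 in vector arrays (2.64 ± 0.27, adjusted p = 1.06e-05). HINT3, a member of the histidine triad family of nucleotide hydrolases, read 7.99 and 6.97 in shp107 arrays and 3.50 and 4.17 in vector arrays (3.65 ± 0.69, adjusted p = 0.00197). HINT3 was also high in senescent shp130 arrays (7.37 and 6.94) and in confluent shp107 arrays (7.77 and 8.21), and it was not high in growing shp107 arrays (3.89 and 3.42). RGS5 went the other way in confluent cells, at 3.91 and 4.90 in shp107 arrays and 12.05 and 10.59 in vector arrays.

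Receptors and secreted proteins were also among the 15 largest rises. F2RL2, a protease-activated receptor, read 8.48 and 8.15 in shp107 arrays and 6.11 and 6.64 in vector arrays (1.94 ± 0.29, adjusted p = 0.000226). FLT1, a receptor for vascular endothelial growth factor, read 7.42 and 6.09 in shp107 arrays and 4.61 and 5.28 in vector arrays (1.81 ± 0.29, adjusted p = 0.000401). In FLT1, array 1 was the higher, and the groups did not overlap, as the choice of genes required. ESM1, a secreted proteoglycan, read 9.70 and 10.10 in shp107 arrays and 8.14 and 7.66 in vector arrays (2.00 ± 0.24, adjusted p = 2.48e-05). LRFN5, a synaptic adhesion protein with leucine-rich repeats, read 7.10 and 6.63 in shp107 arrays and 4.84 and 4.47 in vector arrays (2.20 ± 0.30, adjusted p = 9.04e-05). These 8 genes, RGS5, CYP26B1, ACP3, HINT3, F2RL2, FLT1, ESM1 and LRFN5, were called in each fit that left out 1 of the 4 arrays.

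The other 7 of the 15 largest rises each lost their call when some array was left out. CBX5, the heterochromatin protein HP1 alpha, read 7.98 and 7.90 in shp107 arrays and 4.26 and 5.15 in vector arrays (3.24 ± 0.67, adjusted p = 0.00425), with an adjusted p of 0.0675 without vector array 1. GJB2, a gap junction connexin, read 9.89 and 8.69 in shp107 arrays and 6.69 and 5.62 in vector arrays (3.13 ± 0.69, adjusted p = 0.00642), with 0.0943 without vector array 2. In both genes the 2 shp107 arrays lay above the 2 vector arrays, as the choice of the 15 required. SMOC1, a secreted calcium-binding matrix protein, changed by 2.41 ± 0.53 and lost its call without shp107 array 1 (adjusted p = 0.0846) and without vector array 1 (0.0895). MXRA5, a matrix remodelling protein, changed by 2.00 ± 0.51 and lost it without shp107 array 1 (0.221) and without vector array 2 (0.197), since it read 7.45 and 5.20 in the shp107 arrays and 4.83 and 3.81 in the vector arrays. SLC43A3, a nucleobase transporter, SSX2IP, a protein of centriolar satellites, and FNBP1L, a membrane-bending F-BAR protein, changed by 2.01, 1.86 and 1.83. SLC43A3 had 0.0684 without shp107 array 2 and 0.0581 without vector array 1. SSX2IP had 0.133, 0.0728 and 0.103 without shp107 array 2, vector array 1 and vector array 2, and FNBP1L had 0.0829 without vector array 1.

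Of the 15 largest rises, all but HINT3, F2RL2, SSX2IP and FNBP1L were also called higher with shRB than with vector in senescent cells. CYP26B1 and ACP3 rose by 2.95 ± 0.41 and 2.07 ± 0.27 with shRB (limma, adjusted p = 4.76e-05 and 1.96e-05). HINT3, CYP26B1, ACP3, SMOC1 and ESM1 were also called higher with shp130 than with vector. With shp130 CYP26B1 and ACP3 rose by 2.30 ± 0.41 and 1.71 ± 0.27 (adjusted p = 0.00498 and 0.00148). RGS5 read 9.06 and 9.44, GJB2 10.13 and 10.11, and ESM1 11.79 and 11.20 in senescent shRB arrays, values as high as or above those of shp107. Of the 15, HINT3 and F2RL2 were called higher with shp107 than with shRB, by 2.97 ± 0.69 and 2.13 ± 0.29 (limma, adjusted p = 0.00437 and 3.13e-05), and without shRB array 1 the HINT3 call was lost (adjusted p = 0.102). SLC43A3 and ESM1 were called lower with shp107 than with shRB, by -1.26 ± 0.44 and -1.59 ± 0.24 (adjusted p = 0.0425 and 0.00011).

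**Figure D2:**
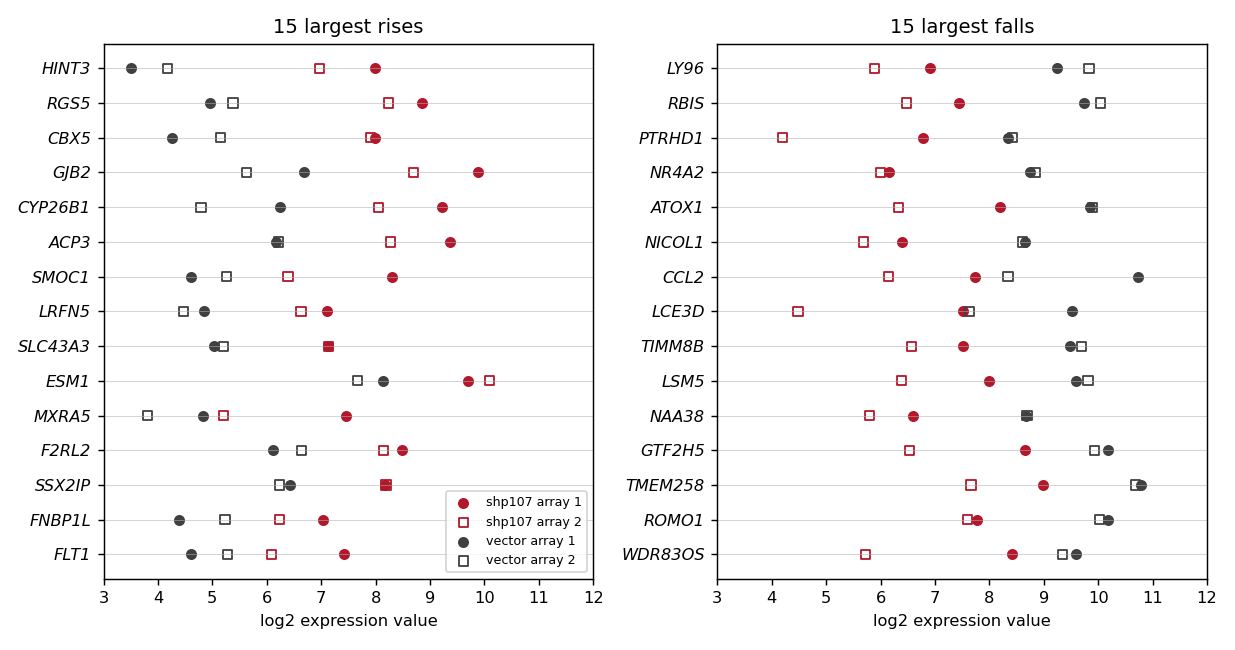
The x axis is the log2 expression value and each row is 1 of the 15 largest rises (left) or falls (right), with the 2 senescent shp107 arrays in red and the 2 vector arrays in grey, array 1 filled and array 2 open. In the falls the open red squares of shp107 array 2 lie left of the filled red circles of array 1 in every row, for example at 4.20 and 6.77 for PTRHD1.

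The largest falls included LY96, RBIS and genes of mitochondrial proteins. LY96, the co-receptor of the lipopolysaccharide receptor TLR4, read 6.90 and 5.88 in shp107 arrays and 9.24 and 9.83 in vector arrays (-3.15 ± 0.38, limma, adjusted p = 2.48e-05). RBIS, a factor of ribosome assembly, read 7.44 and 6.47 in shp107 arrays and 9.73 and 10.04 in vector arrays (-2.93 ± 0.35, adjusted p = 2.48e-05). In both genes each shp107 array lay more than 1 log2 unit under each vector array. ROMO1, a protein of the inner mitochondrial membrane that raises reactive oxygen, read 7.78 and 7.60 in shp107 arrays and 10.17 and 10.03 in vector arrays (-2.41 ± 0.30, adjusted p = 4.44e-05). TIMM8B, a chaperone of import into that membrane, read 7.51 and 6.57 in shp107 arrays and 9.48 and 9.69 in vector arrays (-2.54 ± 0.34, adjusted p = 6.38e-05). ATOX1, a copper chaperone, read 8.20 and 6.33 in shp107 arrays and 9.85 and 9.90 in vector arrays (-2.62 ± 0.45, adjusted p = 0.000772). The ROMO1 fall was about the same in both arrays, while in ATOX1 array 2 was the lower.

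Subunits of gene expression complexes followed. LSM5, part of the LSM ring that binds U6 small nuclear RNA, read 7.99 and 6.39 in shp107 arrays and 9.59 and 9.81 in vector arrays (-2.51 ± 0.30, adjusted p = 2.48e-05). NAA38, a subunit of the N-terminal acetyltransferase NatC, read 6.59 and 5.80 in shp107 arrays and 8.67 and 8.69 in vector arrays (-2.49 ± 0.27, adjusted p = 1.49e-05). GTF2H5, the smallest subunit of the transcription and repair factor TFIIH, read 8.66 and 6.53 in shp107 arrays and 10.17 and 9.93 in vector arrays (-2.45 ± 0.43, adjusted p = 0.00111). All vector arrays of these genes were above all shp107 arrays, as the choice of the largest falls required. TMEM258, a subunit of oligosaccharyltransferase, WDR83OS, a protein that helps insert membrane proteins at the endoplasmic reticulum, PTRHD1, a peptidyl-tRNA hydrolase domain protein, and NICOL1, a small secreted protein, fell by 2.41, 2.40, 2.90 and 2.59. WDR83OS read 8.42 and 5.72 in shp107 arrays and lost its call without shp107 array 2 (adjusted p = 0.104).

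The remaining falls were NR4A2, CCL2 and LCE3D. NR4A2, an orphan nuclear receptor of the immediate early response, read 6.15 and 5.99 in shp107 arrays and 8.74 and 8.85 in vector arrays (-2.73 ± 0.41, adjusted p = 0.000223), with tight pairs on both sides. CCL2, a chemokine that attracts monocytes, read 7.74 and 6.15 in shp107 arrays and 10.73 and 8.34 in vector arrays (-2.59 ± 0.62, adjusted p = 0.0114), and it lost its call without shp107 array 2 (0.284) and without vector array 1 (0.273). CCL2 was also low in senescent shp130 arrays, at 6.72 and 5.76, and LCE3D in senescent shRB arrays, at 7.34 and 5.05. LCE3D, a protein of the cornified envelope of skin, read 7.52 and 4.48 in shp107 arrays and 9.51 and 7.63 in vector arrays (-2.57 ± 0.68, adjusted p = 0.0206), and it lost its call without shp107 array 2 (0.565) and without vector array 1 (0.309). Of the 15 falls, 12 were called in each fit that left out 1 array, all but WDR83OS, CCL2 and LCE3D.

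Grouping the genes by symbol, which was done after the values were seen and carries no test, brought out the respiratory chain. Of 72 tested genes for complexes I to V, 46 were called lower and 0 higher, where 5.1% of all genes tested were lower, with a median change of -1.20 against 0.11 over all genes tested. The median was -0.62 in array 1 and -1.68 in array 2. Without shp107 array 2, 24 of the 72 were called lower, beside 107 of all 8511 genes, and without array 1 54 were called lower and 1 higher. In each of the 4 fits that left out an array, the same 24 genes were called lower, and without either vector array the count was 35. The median level of the 72 genes was 10.01 and 9.11 in shp107 arrays, 10.88 and 10.94 in shRB arrays, 10.98 and 10.94 in shp130 arrays and 10.87 and 10.86 in vector arrays. The 6 other senescent arrays thus ranged from 10.86 to 10.98, and both shp107 arrays lay below them.

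Members of complex I gave the clearest single examples, all chosen after their values were seen. NDUFA1, an accessory subunit of NADH dehydrogenase, read 9.42 and 9.05 in shp107 arrays and 11.48 and 11.46 in vector arrays (-2.23 ± 0.25, limma, adjusted p = 1.86e-05). NDUFB7, another accessory subunit, read 7.82 and 6.17 in shp107 arrays and 9.23 and 9.24 in vector arrays (-2.24 ± 0.35, adjusted p = 0.000306). NDUFA1 fell about equally in both arrays and NDUFB7 did not. UQCRQ, a subunit of complex III, read 10.49 and 10.06 in shp107 arrays and 11.48 and 11.50 in vector arrays (-1.22 ± 0.19, adjusted p = 0.000387). COX6A1, a subunit of complex IV, read 11.66 and 10.81 in shp107 arrays and 12.25 and 12.33 in vector arrays (-1.06 ± 0.20, adjusted p = 0.00244), and it lost its call without shp107 array 2 (0.0878).

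Other families held lower genes too, less evenly between the arrays, and their counts stand beside the same 5.1% of all genes tested. Of 75 genes of the mitochondrial ribosome, 25 were called lower and 0 higher, with medians of -0.07 in array 1 and -1.25 in array 2, and 3 were called lower without array 2, 47 without array 1 and 9 without either vector array. Of 54 genes of the cytosolic ribosome, 31 were called lower and 0 higher, with medians of -0.39 and -0.95, and 8 were called lower without array 2, 15 without vector array 1 and 12 without vector array 2. Many cytosolic ribosomal protein genes have near-identical pseudogene copies, so single values there are uncertain. Of 23 LSM and SNRP genes, which build the spliceosome's small nuclear ribonucleoproteins, 13 were called lower and 0 higher, with medians of -0.41 and -1.72, and 5 without array 2. Of 12 genes of RNA polymerase II, 5 were called lower and 0 higher, with medians of -0.06 in array 1 and -1.49 in array 2, and 2 were called lower without array 2. POLR2L, a small subunit shared by the nuclear RNA polymerases, read 10.04 and 9.97 in shp107 arrays and 12.21 and 12.07 in vector arrays (-2.14 ± 0.21, limma, adjusted p = 1.06e-05). POLR2L, chosen after its values were seen, fell about equally in both arrays, unlike the median of its family.

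The proteasome and the initiation factors gave few calls, near or under the share of all genes tested. Of 40 proteasome genes, 2 were called lower, 0 without shp107 array 2 and 15 without array 1, with medians of 0.00 in array 1 and -0.56 in array 2. Of 45 translation initiation factor genes, 1 was called lower and 1 higher, 0 in each direction in the fits without shp107 array 2 or without either vector array, and without shp107 array 1 8 were called lower and 3 higher. By their medians, the mitochondrial ribosome, RNA polymerase II and the proteasome lay within 0.07 of the vector level in array 1 and below it in array 2. In low serum the respiratory chain genes had a median of 0.54 with shp107 against vector, in growing cells -0.08 and in confluent cells 0.12. In low serum their median level was 10.73 in both shp107 arrays and 10.47 and 9.95 in the vector arrays. All of these lay below the levels of growing vector cells (10.81 and 10.90), the vector arrays farther than the shp107 arrays.

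**Figure D3:**
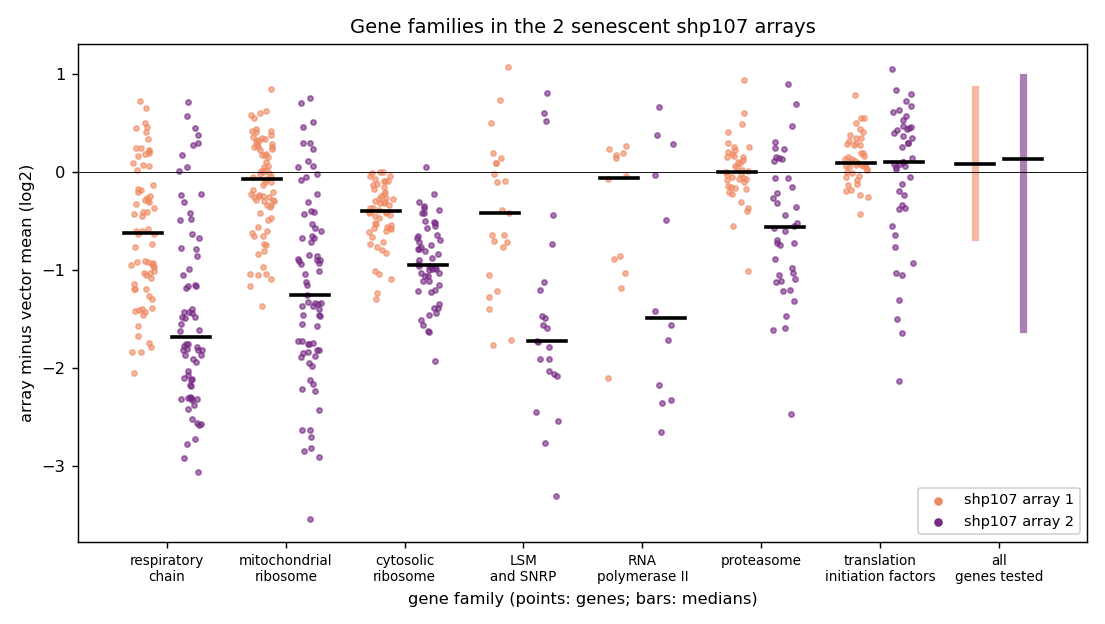
The y axis is the log2 difference of each gene from the mean of the 2 senescent vector arrays, in shp107 array 1 (orange) and shp107 array 2 (purple), with black bars at the medians and, for all genes tested, coloured bars from the 5th to the 95th percentile. Respiratory chain genes lie low in both arrays (medians -0.62 and -1.68), while mitochondrial ribosome genes lie low in array 2 (-1.25) and near 0 in array 1 (-0.07).

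The lower genes were short in the genome. By the gene spans of the RefSeq annotation of GRCh38.p14, from first to last base with introns, genes called lower had a median span of 7976 bp and genes called higher one of 49181 bp, against 33067 bp over the 8506 tested genes with a span. In the quartile of shortest genes, up to 13305 bp, 302 of 2127 (14.2%) were called lower and 34 (1.6%) higher. In the quartile of longest genes, 25 of 2127 (1.18%) were called lower and 84 (3.95%) higher. Without shp107 array 2, 79 genes of the shortest quartile were called lower and 14 higher, and without array 1 the numbers were 613 and 48. Without vector array 1 they were 164 and 14, and without vector array 2 139 and 16.

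The relation with span was strongest in shp107 array 2. The median of the shortest quartile minus that of the longest, each gene taken relative to its mean over the 32 arrays, was -0.02 in shp107 array 1 and -0.48 in shp107 array 2. The 6 other senescent arrays ranged from 0.18 to 0.41, and the 30 arrays outside this pair from -0.24 to 0.41. Both shp107 arrays thus lay below every other senescent array, and array 2 below every other array. The respiratory chain genes have a median span of 9589 bp, the mitochondrial ribosome genes 8667 bp and the cytosolic ribosome genes 5167 bp. The RNA polymerase II genes have 7842 bp and the LSM and SNRP genes 13739 bp. The proteasome genes, with few calls, have 14480 bp and the initiation factor genes 23855 bp. The lengths of the mature transcripts and the 3' to 5' control probe sets were not used here, and the part of gene length or RNA quality in these falls was not tested.

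**Figure D4:**
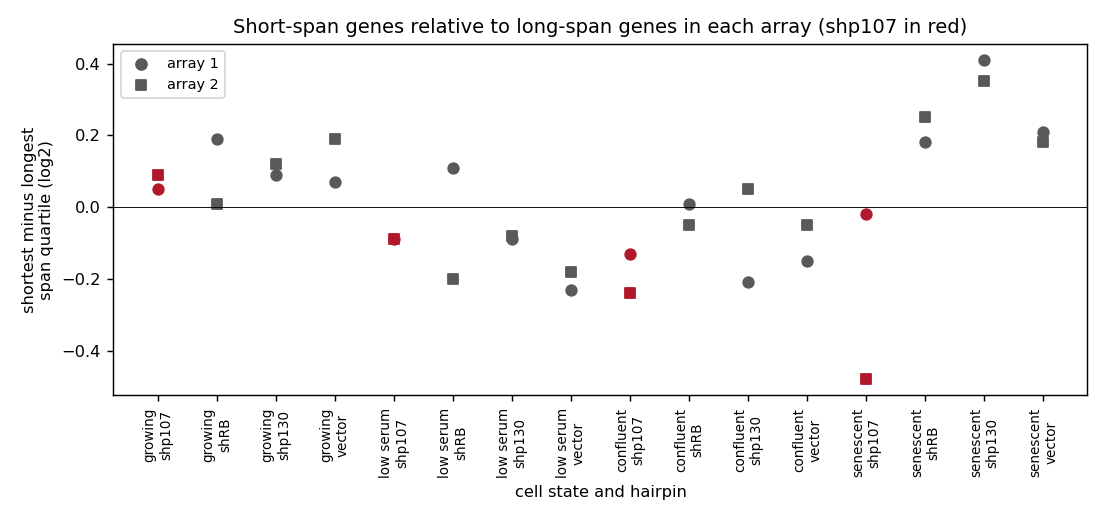
The y axis is the median log2 value of the quartile of genes with the shortest span minus that of the longest, with each gene relative to its mean over the 32 arrays, and the x axis gives each state and hairpin, with array 1 as circles and array 2 as squares. Senescent shp107 array 2 lies lowest, at -0.48, and shp107 array 1 at -0.02 lies under the other senescent arrays, which range from 0.18 to 0.41.

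Promoters of some even and some deep falls are printed to show the sequence in front of these genes. The windows run from 250 bases before to 50 after the start of the gene in RefSeq on GRCh38.p14, 5' to 3' on the gene's strand. Capitals mark CCGGAAG on either strand, the core of ETS family sites.
ROMO1 (chr20:35699155-35699454, plus strand): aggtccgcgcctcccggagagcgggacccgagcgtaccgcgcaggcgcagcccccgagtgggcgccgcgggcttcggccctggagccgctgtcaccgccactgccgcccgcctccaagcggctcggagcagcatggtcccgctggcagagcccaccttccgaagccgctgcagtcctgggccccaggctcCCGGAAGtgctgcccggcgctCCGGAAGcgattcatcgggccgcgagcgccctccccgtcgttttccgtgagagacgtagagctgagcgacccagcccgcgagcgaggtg
NDUFA1 (chrX:119871582-119871881, plus strand): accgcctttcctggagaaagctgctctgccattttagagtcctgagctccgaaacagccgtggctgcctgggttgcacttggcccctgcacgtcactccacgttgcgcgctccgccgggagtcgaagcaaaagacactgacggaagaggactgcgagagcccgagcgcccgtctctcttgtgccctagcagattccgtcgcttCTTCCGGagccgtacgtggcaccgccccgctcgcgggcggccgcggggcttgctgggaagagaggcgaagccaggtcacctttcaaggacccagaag
LSM5 (chr7:32490331-32490630, minus strand): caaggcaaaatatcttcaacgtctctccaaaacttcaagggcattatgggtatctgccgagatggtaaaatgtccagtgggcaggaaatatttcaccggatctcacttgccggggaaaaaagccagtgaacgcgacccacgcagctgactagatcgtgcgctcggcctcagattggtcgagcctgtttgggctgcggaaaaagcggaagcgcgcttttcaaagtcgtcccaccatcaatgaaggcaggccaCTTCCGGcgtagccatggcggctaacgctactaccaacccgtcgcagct

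ROMO1 holds 2 such matches, and NDUFA1 and LSM5 hold 1 each. Every printed window of a fall thus holds a match. Windows of other falls differ: those of TMEM258, WDR83OS and NDUFB7, among others, hold 1 each. Those of POLR2L, NAA38, ATOX1, PTRHD1 and GTF2H5, among others, hold 0. Of the 434 lower genes, 370 had a window in the table, and 120 of these (32.4%) held CCGGAAG. Of 193 windows of higher genes, 30 (15.5%) held it, and of 7123 windows of tested genes 21.1% did, beside 10.7% of the 27305 windows in the table. The palindromic core of NRF1 sites stood in 1.89% of the windows of lower genes and 2.61% of those of tested genes. These shares describe letters in a window and were not tested.

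Genes of the E2F and cell cycle lists gave few calls, where 7.84% of all genes tested were called. Of 13 tested genes of the pocket protein and E2F family, 0 were called between shp107 and vector cells. Of 20 E2F-regulated G1/S genes, 0 were called, with a median change of -0.08. Of 42 DNA replication genes, 1 was called higher and 1 lower, with a median of -0.04 against 0.11 over all genes tested. The median was -0.07 in array 1 and -0.01 in array 2. The higher one was RFC1, the large subunit of the clamp loader, at 5.20 and 5.26 in shp107 arrays and 4.29 and 4.32 in vector arrays (0.92 ± 0.27, limma, adjusted p = 0.0367). Its call was lost whichever of the 4 arrays was left out, with an adjusted p of 0.0528 to 0.233. The lower one was DUT, which removes dUTP, at 9.10 and 7.72 in shp107 arrays and 9.75 and 9.30 in vector arrays (-1.12 ± 0.28, adjusted p = 0.0164). It was not called without shp107 array 2 (0.482) or without vector array 1 (0.18).

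Set against shRB, where RB was suppressed, the same list separated. In the comparison of shp107 with shRB, 1923 genes (22.6%) were called, 939 (11.0%) higher and 984 (11.6%) lower with shp107. Without shp107 array 2 567 were called, without shRB array 1 1247 and without shRB array 2 1078. Of the 42 DNA replication genes, 26 were lower and 1 higher with shp107 than with shRB, with a median of -1.65 against 0.10 over all genes tested. Of the 20 G1/S genes, 12 were lower and 1 higher, with a median of -1.77. This comparison shares the shp107 arrays with the one against vector.

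Single cell cycle genes show the size of that difference. CCNE2, a cyclin that activates CDK2 at the start of S phase, read 3.10 and 3.36 in shp107 arrays and 9.55 and 8.56 in shRB arrays (-5.82 ± 0.42, limma, adjusted p = 7.19e-09). PCLAF, which binds the replication clamp PCNA, read 5.46 and 5.19 in shp107 arrays and 11.16 and 10.28 in shRB arrays (-5.39 ± 0.50, adjusted p = 3.06e-07). Vector arrays read 3.87 and 4.05 for CCNE2 and 7.14 and 7.05 for PCLAF, under every shRB array. PCLAF was itself lower with shp107 than with vector (-1.77 ± 0.50, adjusted p = 0.0325), a call lost without shp107 array 2 (0.262), vector array 1 (0.16) or vector array 2 (0.126). MCM3 and MCM5, subunits of the replicative helicase chosen after their values were seen, read 5.33 and 5.38, and 3.63 and 3.26, in shp107 arrays. In shRB arrays MCM3 read 9.05 and 7.06 and MCM5 7.48 and 6.31, and in vector arrays 5.99 and 5.11, and 3.46 and 3.16. Lamin B1, from LMNB1, a nuclear lamina gene also chosen after its values were seen, read 4.65 and 5.24 in shp107 arrays, 7.15 and 6.57 in shRB arrays and 4.18 and 4.33 in vector arrays.

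The promoter of MCM3 is printed as an example from the DNA replication list, since MCM3 was not called against vector and was lower than with shRB (-2.70 ± 0.47, limma, adjusted p = 0.000414). Capitals mark TTTCCCGC or TTTCGCGC, which with TTTGGCGC were searched on both strands as E2F site letters, and matches to different letters can overlap.
MCM3 (chr6:52284693-52284992, minus strand): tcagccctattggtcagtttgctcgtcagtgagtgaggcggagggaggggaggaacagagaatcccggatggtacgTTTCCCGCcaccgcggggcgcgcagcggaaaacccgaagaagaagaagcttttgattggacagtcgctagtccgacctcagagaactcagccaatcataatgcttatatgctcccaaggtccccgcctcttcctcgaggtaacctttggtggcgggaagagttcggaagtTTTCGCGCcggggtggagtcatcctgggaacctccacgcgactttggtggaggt

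Of 36 windows of DNA replication genes, 15 (41.7%) held one of these letters, and of the windows of all tested genes 4.72% did, beside 2.79% of all windows in the table. In windows of the lower genes the share was 5.41% and in those of the higher genes 2.07%.

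**Figure D5:**
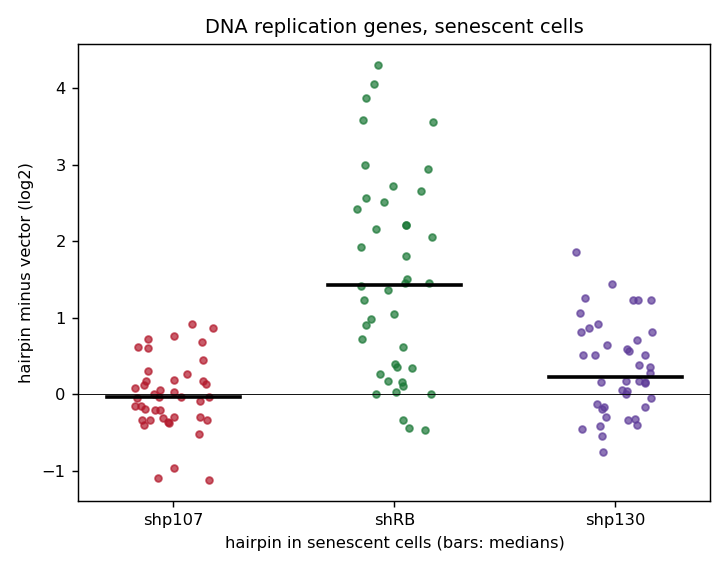
Each point is 1 of 42 DNA replication genes, with its log2 change against the senescent vector arrays (y axis) for senescent shp107, shRB and shp130 cells (x axis), and bars mark the medians of -0.04, 1.43 and 0.23. The 3 changes share the 2 vector arrays, and the shp107 median lies near 0.

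Mitosis genes gave 2 calls among 51 tested, both lower, where 5.1% of all genes tested were lower. CKS2, a small subunit that binds cyclin-dependent kinases, read 8.69 and 8.29 in shp107 arrays and 10.38 and 10.83 in vector arrays (-2.12 ± 0.23, limma, adjusted p = 1.49e-05). PTTG1, securin, read 6.43 and 4.98 in shp107 arrays and 7.25 and 7.86 in vector arrays (-1.84 ± 0.47, adjusted p = 0.0172), and it lost its call without shp107 array 2 (0.401) and without vector array 2 (0.159). The CKS2 call stood in all 4 fits that left out an array. CKS2 was low in senescent shRB arrays too, at 8.84 and 8.77. The list's median was -0.10.

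The inhibitors of cyclin-dependent kinases gave no call. CDKN1A (p21) read 12.24 and 12.60 in shp107 arrays and 12.05 and 12.04 in vector arrays. CDKN2A (p16 and ARF) read 9.14 and 8.35 in shp107 arrays and 9.22 and 9.12 in vector arrays. CDKN2B (p15) read 10.99 and 11.39 in shp107 arrays and 10.49 and 11.08 in vector arrays. Adjusted p-values were 0.378, 0.297 and 0.797 (limma), and without shp107 array 1 CDKN2A was called lower (-0.81, adjusted p = 0.0197). CDKN1B (p27), at 7.49 and 6.14 in shp107 arrays and 7.75 and 7.49 in vector arrays, had an adjusted p of 0.285, and 0.0346 without shp107 array 1. E2F7, an E2F that represses targets, read 11.21 and 11.29 in shp107 arrays and 10.65 and 10.78 in vector arrays, with an adjusted p of 0.396.

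Among 23 secreted inflammatory factors tested, CCL2 alone was called, as described, where 7.84% of all genes tested were called. The median of the list was 0.01. CXCL8, the neutrophil chemokine interleukin 8, read 12.85 and 12.94 in shp107 arrays and 12.82 and 12.71 in vector arrays. IL6, an interleukin of the senescent secretome, read 11.13 and 10.71 in shp107 arrays and 11.96 and 11.06 in vector arrays. IL1A, an upstream interleukin of that secretome, read 11.17 and 11.36 in shp107 arrays and 10.74 and 10.20 in vector arrays. None of the 3, chosen after their values were seen, passed the test (adjusted p = 0.943, 0.743 and 0.695).

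Of 35 secreted proteases and growth factor regulators, 3 were called higher and 0 lower, where 2.74% of all genes tested were higher. The list's median was 0.22. TIMP3, an inhibitor of metalloproteases bound to matrix, read 10.70 and 10.25 in shp107 arrays and 8.57 and 9.34 in vector arrays (1.52 ± 0.35, limma, adjusted p = 0.00836, and 0.15 without vector array 1). MMP14, a membrane metalloprotease, read 7.33 and 8.03 in shp107 arrays and 5.72 and 6.80 in vector arrays (1.42 ± 0.30, adjusted p = 0.00508). The MMP14 call was lost without shp107 array 2 (0.15) and without vector array 1 (0.146). ESM1 was the third.

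Of 34 fibrillar collagen and matrix genes, 4 were called higher and 0 lower, where 2.74% of all genes tested were higher. The list's median was 0.36, with 0.24 in array 1 and 0.52 in array 2. BGN, the proteoglycan biglycan, read 7.90 and 7.35 in shp107 arrays and 6.23 and 6.18 in vector arrays (1.42 ± 0.35, limma, adjusted p = 0.0153). COL3A1, the chain of collagen III, read 10.77 and 11.48 in shp107 arrays and 9.84 and 9.83 in vector arrays (1.29 ± 0.34, adjusted p = 0.0204). COL6A2 and COL4A1, chains of collagens VI and IV, rose by 1.25 ± 0.30 and 0.78 ± 0.19 (adjusted p = 0.0112 and 0.013). The count was 9 without shp107 array 1, 1 without shp107 array 2, 1 without vector array 1 and 0 without vector array 2. Against shRB, where 11.0% of all genes tested were higher, 10 of the 34 were higher and 0 lower with shp107. Against shp130, where 8.85% of all genes tested were higher, 12 were higher and 0 lower.

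Immediate early and interferon genes gave a few calls, beside 2.74% of all genes tested called higher and 5.1% called lower. EGR1, a zinc finger factor induced by growth signals, read 11.77 and 11.18 in shp107 arrays and 9.36 and 10.48 in vector arrays (1.55 ± 0.33, limma, adjusted p = 0.00522, and 0.145 without vector array 1). It was the call among 23 RAS and ERK response genes. In the immediate early list of 21, EGR1 and its relative EGR3 (1.28 ± 0.29, adjusted p = 0.00842) were higher and NR4A2 lower. The EGR3 call was lost without shp107 array 2 (0.111) and without vector array 2 (0.095). Of 13 interferon response genes, 3 were higher: RIGI, a sensor of viral RNA, by 1.47 ± 0.28 (adjusted p = 0.00191), and the antiviral proteins SAMD9 and SAMD9L by 1.36 ± 0.39 and 1.21 ± 0.32. RIGI read 5.88 and 6.65 in shp107 arrays and 4.78 and 4.81 in vector arrays and lost its call without shp107 array 2 (0.0827). SAMD9 and SAMD9L (adjusted p = 0.0362 and 0.0216) kept a call without shp107 array 2 and lost it without each of the other 3 arrays, at 0.0861 to 0.319.

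Other lists held single calls, where 7.84% of all genes tested were called. ICAM1, an adhesion molecule induced by NF-kB, was the call among 16 genes of NF-kB subunits and feedback, at 10.20 and 10.24 in shp107 arrays and 8.58 and 8.63 in vector arrays (1.62 ± 0.47, limma, adjusted p = 0.0372). Its arrays were close within each group, but the pooled spread of the gene was wide, and the call was lost whichever array was left out (0.0649 to 0.233). DDB2, a DNA damage sensor, was the call among 24 p53 targets (0.92 ± 0.27, adjusted p = 0.0372), and it stood when vector array 2 was left out and was lost otherwise (0.0571 to 0.366). S100A4, a calcium-binding fibroblast marker, fell by 1.25 (adjusted p = 0.0402) and lost its call without shp107 array 2 (0.438), vector array 1 (0.189) or vector array 2 (0.13). CBX5 was the call among 24 genes of chromatin and lamins. Of 13 DNA repair, 21 contractile, 17 cholesterol synthesis and 25 lysosome genes, 0 were called.

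Against shp130, 1442 genes (16.9%) were called, 753 (8.85%) higher and 689 (8.1%) lower with shp107, and 335 without shp107 array 2, 572 without shp130 array 1 and 705 without shp130 array 2. The 5 largest differences downward included LCE3D, CRCT1 and LCE2B. LCE3D read 7.52 and 4.48 in shp107 arrays and 10.74 and 10.84 in shp130 arrays (-4.79 ± 0.68, limma, adjusted p = 8.89e-05). CRCT1, a cysteine-rich protein of the same gene cluster, read 3.07 and 2.65 in shp107 arrays and 7.88 and 6.28 in shp130 arrays (-4.22 ± 0.30, adjusted p = 3.07e-08). LCE2B, a relative of LCE3D, differed by -3.20 ± 0.34 (adjusted p = 8.65e-06), with 3.84 and 4.19 in shp107 arrays and 7.83 and 6.60 in shp130 arrays. Vector arrays read 9.51 and 7.63 for LCE3D, 4.02 and 3.64 for CRCT1 and 6.72 and 5.38 for LCE2B. With shRB, LCE3D and LCE2B were also called lower than with vector (-2.37 ± 0.68 and -1.61 ± 0.34, limma, adjusted p = 0.0272 and 0.0039). CRCT1 was lower with shRB without a call (-0.82 ± 0.30, limma, adjusted p = 0.0962). GJB2 and ITGB8, an integrin subunit, were higher with shp107, by 3.76 ± 0.69 and 3.01 ± 0.54 (adjusted p = 0.000938 and 0.00075), and so was RECK, an inhibitor of matrix metalloproteases, by 2.75 ± 0.34 (adjusted p = 2.54e-05). RECK read 7.58 and 7.90 in shp107 arrays, 5.30 and 4.68 in shp130 arrays, 7.57 and 8.05 in vector arrays and 5.73 and 4.42 in shRB arrays, so the shp107 and vector arrays were the high ones. CBX5 was 2.71 ± 0.67 higher with shp107 than with shp130 (adjusted p = 0.0089), a call lost without shp107 array 2 (0.0753) or shp130 array 2 (0.0814).

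Against shRB, IFI6, IL33 and TMEM106C were among the 5 largest differences downward. Of the 13 interferon response genes of the list, 1 was higher and 5 were lower with shp107 than with shRB. Among all genes tested, 11.0% were higher and 11.6% lower in that comparison. IFI6, an interferon-induced mitochondrial protein, read 3.93 and 2.93 in shp107 arrays and 10.28 and 6.47 in shRB arrays (-4.94 ± 0.80, limma, adjusted p = 0.000207). IL33, an alarmin cytokine kept in the nucleus, read 4.39 and 3.47 in shp107 arrays and 10.06 and 8.22 in shRB arrays (-5.21 ± 0.73, adjusted p = 4.02e-05). TMEM106C, a transmembrane protein, differed by -5.07 ± 0.36 (adjusted p = 5.91e-09). The vector arrays read 3.31 and 3.30 for IFI6 and 5.06 and 3.65 for IL33. Higher with shp107 were CCND2, cyclin D2, at 8.53 and 9.01 in shp107 arrays and 5.70 and 4.78 in shRB arrays (3.54 ± 0.53, adjusted p = 0.000104), and PCDH9, a protocadherin (3.04 ± 0.48, adjusted p = 0.000153). GAS6, a ligand of AXL family receptors, was also higher (3.05 ± 0.39, adjusted p = 1.31e-05).

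Respiratory chain genes were lower with shp107 in these comparisons as well, which share the shp107 arrays. Of the 72, 49 were lower and 2 higher against shRB, where 11.6% of all genes tested were lower and 11.0% higher. Against shp130, 52 were lower and 0 higher, where 8.1% of all genes tested were lower and 8.85% higher. The medians of the 72 were -1.01 against shRB and -1.11 against shp130. Set against vector, senescent shRB cells, with 9.75% of all genes called, had 0 of the 72 called in either direction and a median of -0.04, and senescent shp130 cells had a median of 0.03. Of all genes, 340 were lower with shp107 than with each of vector, shRB and shp130, and 48 were higher.

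Genes on which the 2 shp107 arrays disagreed most are given as a description, with the vector arrays less than 1 log2 unit apart. CDC42EP5, an effector of the GTPase CDC42, read 8.22 and 4.0 in shp107 arrays and 6.56 and 6.60 in vector arrays. IFITM1, an interferon-induced membrane protein, read 6.81 and 3.03 in shp107 arrays and 6.38 and 5.58 in vector arrays. MMP12, macrophage elastase, read 8.09 and 4.64 in shp107 arrays and 4.24 and 4.76 in vector arrays. CDC42EP5 and IFITM1 bracket the vector with their shp107 arrays, and MMP12 does not. IL1RAPL1, a synaptic receptor, read 8.75 and 5.52 in shp107 arrays and 6.49 and 7.46 in vector arrays, so that it was 1.78 higher without shp107 array 2 (adjusted p = 0.0124) and 1.45 lower, as -1.45, without shp107 array 1 (0.00938). GAL, the neuropeptide galanin, read 11.02 and 8.26 in shp107 arrays and 10.32 and 10.26 in vector arrays.

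In the other direction, array 2 exceeded array 1 most for 8 genes. They were picked for this difference, so their place relative to the growing vector arrays is a description and was not tested. GALNT5, a transferase that starts O-glycans, read 5.02 and 7.45 in shp107 arrays and 5.18 and 5.64 in vector arrays, against 9.60 and 9.92 in growing vector arrays. EFEMP1, the matrix protein fibulin 3, read 4.92 and 7.05 in shp107 arrays and 5.21 and 6.21 in vector arrays, against 10.96 and 10.45 in growing vector arrays. GAS6 read 7.75 and 9.41 in shp107 arrays and 7.40 and 7.51 in vector arrays, against 11.36 and 12.05 in growing vector arrays. In all 3 genes array 2 lay above both senescent vector arrays and below both growing ones. MEST, an imprinted hydrolase, and FBLN5, fibulin 5, had the same arrangement, at 4.65 and 6.26, and 6.08 and 7.90, in shp107 arrays, 4.81 and 5.32, and 6.08 and 6.46, in senescent vector arrays, and 9.24 and 10.73, and 9.36 and 9.20, in growing vector arrays. RRAD, a small GTPase that damps calcium channels, read 6.0 and 7.61 in shp107 arrays, 5.54 and 5.17 in senescent vector arrays and 4.41 and 4.04 in growing vector arrays, and with shp107 it was called higher than in senescent vector cells (1.45 ± 0.35, limma, adjusted p = 0.0118), but not without shp107 array 2 (0.4) or vector array 2 (0.116). CYP3A7-CYP3A51P, a readthrough of a cytochrome P450 gene, read 3.63 and 5.68 in shp107 arrays, 3.49 and 2.97 in senescent vector arrays and 3.66 and 3.48 in growing vector arrays. POMT1, which starts O-mannose chains, read 4.65 and 6.34 in shp107 arrays, 4.54 and 4.61 in senescent vector arrays and 4.87 and 4.95 in growing vector arrays. In these last 3 genes array 2 lay above every growing vector array as well.

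In growing cells the same hairpin gave 0 called genes against vector (0.0% of 8511; 117 at an unadjusted limma p under 0.05). Low serum gave 3 (0.0352%), and confluent cells 1148 (13.5%), where the vector pair is the widest of the 16. The difference of the shp107 effect between senescent and growing cells was called in 100 genes (1.17%), 26 (0.305%) higher and 74 (0.869%) lower in senescent cells. Without senescent shp107 array 1 the count was 791. Leaving out any other of the 8 arrays gave 32 to 58 genes.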

How the data were processed

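Per the labels' protocols, biotinylated cRNA was made from 1 µg of total RNA of IMR90 cells. The deposited table holds log2 values, produced by the authors with GCRMA per the submitters' processing notes, with its version not given in the sources used here. Of 54613 probe sets, 41091 name 1 gene, and the one with the highest mean over the arrays stood for each of 19775 genes. Genes had to exceed 5 (log2) on 2 or more of experiment 1's 32 arrays, and the 8511 that did entered limma 3.58.1 in R 4.3.3 (1 mean per group, eBayes, Benjamini-Hochberg adjustment, called under 0.05). All 32 arrays shared 1 estimate of the spread, with 16 residual degrees of freedom. The fit was tested on simulated data in which each gene had the same spread on all arrays, so the wider shp107 pair was not imitated. Of 100 genes given a change of 1 log2 unit, 38% were called, and of 100 given 2 log2 units, 90%. Among the unchanged genes 3 were called. A gene without a call can thus still differ by 1 log2 unit.

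Named genes were RB1, RBL1 and RBL2, the 15 largest called rises and falls whose groups did not overlap, the 5 largest each way in the other comparisons, the 8 largest differences each way between the shp107 arrays, and up to 4 called members of each list, or the 2 with the smallest p where none was called, with all tested members of the pocket protein, E2F and inhibitor lists. Genes outside this rule are said to be chosen after their values were seen. Members and lists were chosen with earlier results of these data known. Alternatives, whose effect is given with the other limits, changed the arrays fitted, normalization, filter, probe sets, variance model and replicate block.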

Additional observations from a re-analysis of the deposited data

Results flagged for a closer look

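The effect of shp107 against vector was set against itself in senescent and growing cells by an interaction term (limma), and 100 genes were called. Of the named genes, 26 were called, and the 5 largest differences each way are given first. ACP3 differed by 2.71 ± 0.38 (adjusted p = 0.00191), with 2.99 and 2.90 in growing shp107 arrays and 3.11 and 2.93 in growing vector arrays. LY96 differed by -3.25 ± 0.53 (adjusted p = 0.00331), with 9.04 and 8.48 in growing shp107 arrays and 9.03 and 8.28 in growing vector arrays. RBIS differed by -3.08 ± 0.50 and LSM5 by -2.72 ± 0.42 (adjusted p = 0.00331 for both). These 4 calls stood when any 1 of the 8 arrays was left out.

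RGS5 differed by 2.97 ± 0.55 and CYP26B1 by 3.12 ± 0.58 (limma, adjusted p = 0.00822 for both). The RGS5 call was lost without growing shp107 array 1 (0.0601) or senescent vector array 1 (0.0543), and that of CYP26B1 without senescent vector array 2 (0.0543). CBX5 differed by 4.77 ± 0.95 (adjusted p = 0.0137), with 7.63 and 5.90 in growing shp107 arrays and 7.57 and 9.03 in growing vector arrays, and 4 of the 8 fits lost its call (0.0539 to 0.0854). HINT3 differed by 4.03 ± 0.98 (0.0446), ATOX1 by -2.57 ± 0.63 (0.0472) and GTF2H5 by -2.78 ± 0.61 (0.023), and each lost its call in every fit but the one without senescent shp107 array 1.

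The other 16 named genes called by this test (limma) had smaller differences. CKS2 had the smallest adjusted p of the 26, 0.00149, with a difference of -2.52 ± 0.33, and read 11.17 and 11.40 in growing shp107 arrays and 10.79 and 10.98 in growing vector arrays. ESM1 differed by 2.03 and LRFN5 by 2.08 (adjusted p = 0.00383 and 0.0155). Of the largest falls, TIMM8B differed by -2.54, NAA38 by -2.36, TMEM258 by -2.34, ROMO1 by -2.24 and NICOL1 by -2.07 (adjusted p of 0.00331 to 0.018). Of genes chosen after their values were seen, NDUFA1 differed by -2.09, NDUFB7 by -2.05, NDUFB3 by -1.61, UQCRQ by -1.20, POLR2L by -2.05, LSM7 by -2.01, RPL36 by -1.39 and RPS29 by -1.32 (adjusted p of 0.00242 to 0.0469).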

How the results depend on the processing

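The number of arrays and the weight given to each limit these results. The 667 genes called between shp107 and vector became 86 with only the 8 senescent arrays fitted (83 of them in the 667), 0 with only the 4 arrays compared (limma, 1068 at an unadjusted p under 0.05) and 282 with array weights. For shp107 against shRB, 1923 became 756, 87 and 593 under the same settings, and for shp107 against shp130 1442 became 422, 0 (1879 at an unadjusted p under 0.05) and 579. The interaction gave 0 with only its 8 arrays (754 at an unadjusted p under 0.05). The fit with array weights kept all 32 arrays. Against vector, 40 of the 233 higher genes and 242 of the 434 lower genes kept their call with array weights. With only the 8 senescent arrays, 23 of the higher and 60 of the lower genes did. Leaving out 1 array gave 183 to 1477 genes against vector, 567 to 2556 against shRB, 335 to 2140 against shp130 and 32 to 791 for the interaction. Called list members numbered 22, and 10 to 46 with 1 array left out. Quantile normalization, filters at log2 4 and 6 or none, all probe sets and an intensity trend gave 594 to 832 genes against vector. The SD between the shp107 arrays was 0.659, with 0.653 after quantile normalization and 0.688 with the filter at 6. IL1RAPL1 reversed to -1.45 (adjusted p = 0.00938) without shp107 array 1 and was 1.78 (0.0124) without array 2.

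The groups share replicate letters, and same-lettered deviations of shp107 and vector arrays correlated at 0.138, with -0.052 to 0.198 over the pairs of groups and 0.138 to 0.198 between shp107 and the other senescent groups. The labels do not say that a letter marks a shared batch, and with 2 arrays a group the values do not settle it. With the replicate block, 680 genes were called against vector, 1906 against shRB, 1472 against shp130 and 99 for the interaction.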
